A study of Mus musculus with 2 samples.

Results

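The outer dense fibres and the fibrous sheath are cytoskeletal structures that surround the axoneme of the sperm tail. The outer dense fibres run along the midpiece and the principal piece, while the fibrous sheath encloses the principal piece only and holds signalling and glycolytic enzymes. Spermatids transcribe many of the genes for these parts before nuclear condensation ends transcription, store the mRNAs and translate them later, so that the time at which an mRNA appears and is lost matters for tail assembly.

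The course of 10 such genes and of their WT and KO levels was read from mouse testis single-cell RNA-seq: Odf1, Odf2, Akap3, Akap4, Fsip2, Cabyr, Ropn1, Ropn1l, Smcp and Gsg1. They were taken by symbol. Smcp and Gsg1 do not encode outer dense fibre or fibrous sheath proteins: SMCP is a cysteine-rich protein of the mitochondrial capsule of the midpiece, and GSG1 is known as a partner of the germ cell poly(A) polymerase. The gene symbols given with the matrix are fewer than its rows (25065 symbols for 26758 rows), so that only symbols with 1 possible row were read. All 10 genes were among the 5476 symbols of this kind.

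The WT library came from male C57BL/6N mice of 10–12 weeks, and the KO library from Tex13a-KO mice of the same strain in which CRISPR/Cas9 had removed the reading frames of Tex13a. Each library was made from testes of 3 mice that had been pooled, so that there was 1 sample per genotype. Genotype and library therefore coincide and cannot be told apart, and no test between genotypes was possible. Levels are given as unique molecular identifiers (UMIs), scaled to 1000000 UMIs of the same cluster and library (CPM). All intervals are 95% intervals that cover counting error only. They are exact, except those of the difference between KO and WT in the change from Sd8 to Sd10, which use a normal approximation.

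The WT library held 5170 cells with 45568532 UMIs and the KO library 7238 cells with 67734689 UMIs, with medians of 6508 and 6714.5 UMIs per cell, and the libraries shared 0 cell barcodes. The authors' 13 clusters run from spermatogonia (Sg) through spermatocytes (Sc1, Sc2) to spermatids (Sd1 to Sd10). Sd10, the last of them, held 184 WT and 278 KO cells. Germ cell markers peaked in the order of these names, with Stra8 highest in Sc1, Acrv1 in Sd4, Tnp1 and Prm1 in Sd8 and Prm2 in Sd10. The row of Tex13a could not be fixed among several rows, so its loss was not checked here. In Sd8 of KO and Sd9 of WT, the red blood cell genes Hba-a1 and Hbb-bs together reached 615.1 and 436.6 CPM, against 5.738 CPM in Sd8 of WT and 9.013 CPM in Sd9 of KO. Their part in the values below was not tested.

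By GENCODE vM21 (build GRCm38), the 10 genes lie on 6 autosomes and on chromosome X. Odf1 spans chromosome 15 from 38219203 to 38226735 on the plus strand in 2 exons, and Odf2 spans chromosome 2 from 29889221 to 29931746 on the plus strand, with 21 exons in its longest coding transcript. Akap4 is the X-linked gene among them, at X from 7067519 to 7078609 on the plus strand. Fsip2, on chromosome 2 from 82943634 to 83008937, has the longest coding region of the group with 20985 bases. Gsg1, on chromosome 6 from 135237326 to 135254351 on the minus strand, overlaps the coding gene Fam234b on the opposite strand. Ropn1l overlaps the processed pseudogene Gm6361 on its own strand, and Cabyr and Odf2 overlap a pseudogene and a small nuclear RNA gene on the opposite strand. Whether the counting used strand is not given in the sources used here, so reads of these overlapping genes cannot be told apart.

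The zinc finger of TEX13A is described as a binder of the single-stranded RNA sequence AGGUAA, written AGGTAA in DNA letters, and this sequence was searched on the sense strand of the longest coding transcript of each gene. It was absent from 8 of the 10 transcripts. Over the longest coding transcripts of all 21901 coding genes, 28.8% held it at least once, and in transcripts within 10% of the length of each absent member the share ran from 10.37% (Odf1) to 31.62% (Odf2). Cabyr held 1 match in its coding region. The Fsip2 transcript, of 21116 bases, held 3, all coding, and all 10 transcripts within 10% of its length held at least 1. The bases of the Cabyr match are not printed, and the 3 Fsip2 matches are shown. They are written 5′ to 3′ on the plus strand of GRCm38 with AGGTAA in capitals and 7 bases on each side, and lie at chr2:82962733-82962738 in exon 11, chr2:82981351-82981356 in exon 16 and chr2:82990916-82990921 in exon 17.
Fsip2 exon 11: atgaaagAGGTAAgaacagt
Fsip2 exon 16: ggccaggAGGTAAagcaagt
Fsip2 exon 17: aatataaAGGTAAtgaaact
A match of these letters is a description and not a binding site, and the absence of a match says only that these letters are not in the transcript model.

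Promoters were searched for the cAMP response element TGACGTCA, bound by a factor that is active in spermatids. It stood in 0 of 13 RefSeq promoters (GRCm38.p6, 250 bases before to 50 after the start, both strands) that were found for 8 of the 10 genes. It stood in 1.79% of the 32851 mouse promoters of the table. Its shorter form TGACG, which the full element contains, was found in 3 of the 13, those of Odf2 and Fsip2, against 20.81% of all promoters.

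The 10 genes followed 3 courses over the clusters. Ropn1l and Fsip2 were highest in early spermatids, Cabyr, Akap3 and Ropn1 in the middle, and Odf1, Odf2, Akap4, Smcp and Gsg1 at the end. The cluster with the highest level was the same in WT and KO for 9 of 10 genes, the exception being Odf2. The share of all features with the same such cluster was not computed. Together the 10 genes took 0.581% of the UMIs of Sd1 in WT and 0.588% in KO, 2.66% and 2.65% in Sd8, and 6.18% (6.13 to 6.22) and 6.30% (6.27 to 6.34) in Sd10. In Sd10 most of these UMIs were of Smcp, with 50283 of 77354 in WT and 75484 of 111043 in KO.

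**Figure D1:**
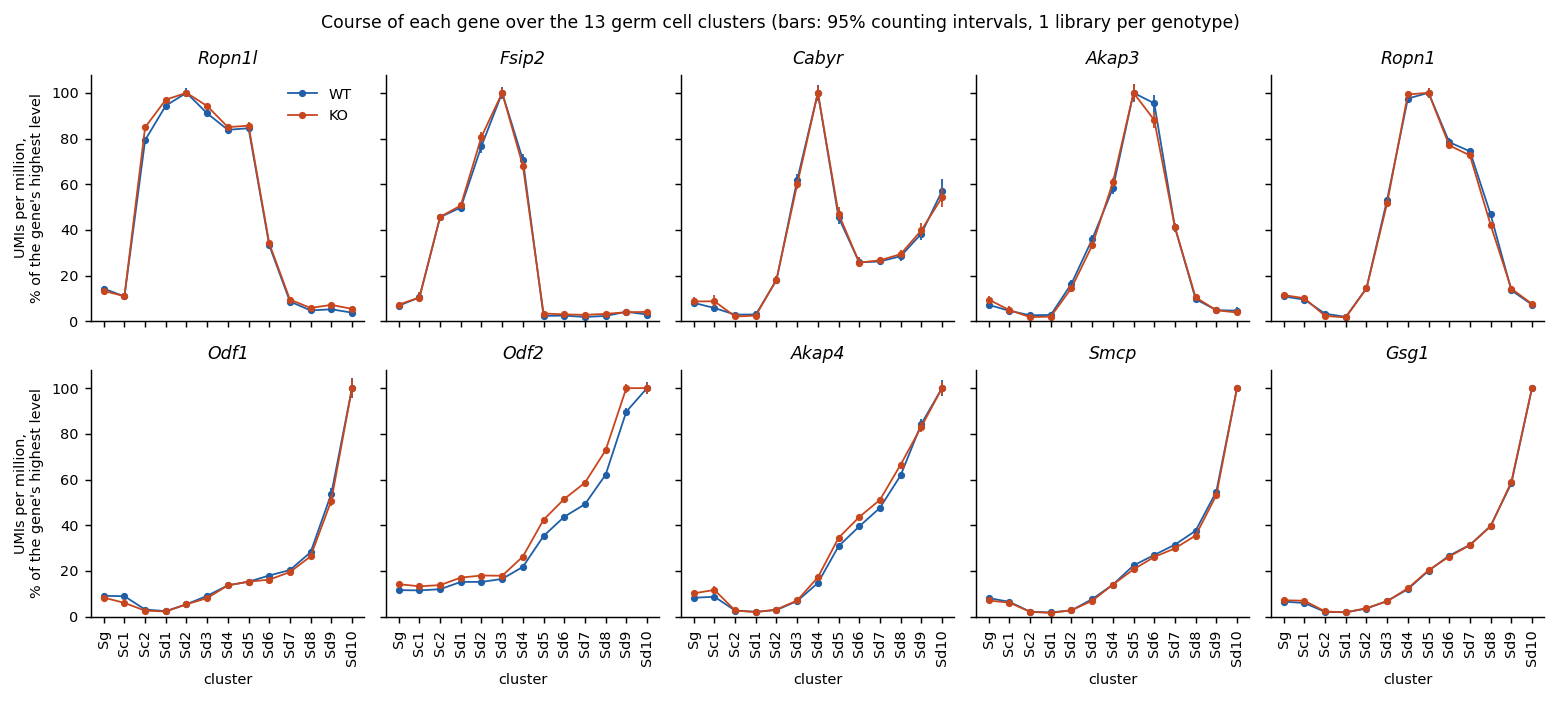
Level of each of the 10 genes in the 13 clusters (x axis, in the order of differentiation), as CPM in percent of the gene's highest CPM in the same library (y axis), for WT (blue) and KO (red), with exact 95% Poisson intervals as bars. Ropn1l and Fsip2 peaked in Sd2 and Sd3, Cabyr, Akap3 and Ropn1 in Sd4 or Sd5, and the other 5 genes at the end, where Odf2 in KO was the same in Sd9 and Sd10 within its intervals.

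Every gene also had UMIs in spermatogonia, although most of these genes are known from spermatids. The level in Sg was between 6.59% and 14.3% of the highest level of the gene, and the protamine and transition protein genes Prm1, Prm2 and Tnp1, which belong to late spermatids, stood there at 7.06% to 13.5%. For 7 genes, Odf1, Akap3, Akap4, Cabyr, Ropn1, Smcp and Gsg1, the level was lower in Sd1 than in Sg, for example 37.45 against 141.3 CPM for Odf1 in WT. Values at or below that of Sg are given here as values and not read as expression by the cells of the cluster. Odf2 is set apart, since its protein is also one of centrioles and its mRNA stayed between 510.3 and 557.9 CPM in Sg, Sc1 and Sc2 of both libraries.

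Ropn1l encodes a ropporin-like protein that binds A-kinase anchoring proteins through a domain like that of the regulatory subunit of protein kinase A. Its level was 2866 CPM in Sc2 of WT and 3048 CPM in Sc2 of KO, and it peaked in Sd2 at 3613 CPM (3542 to 3685) in WT and 3590 CPM (3541 to 3640) in KO. It was thus already near its peak in late spermatocytes, before any other member. From Sd2 to Sd5 the log2 ratio of KO to WT lay between -0.01 and 0.04, and in Sd6 the levels were 1202 and 1226 CPM. The libraries therefore differed by little over the whole range in which the gene was high. After Sd6 it was much lower, and there the levels were higher in KO. They were 171.9 CPM (159 to 185.5) in WT and 210.1 CPM (197.3 to 223.5) in KO in Sd8. In Sd9, WT cells had 190.4 CPM and KO cells 258.6 CPM. Sd10 cells were at 137.3 CPM (117.6 to 159.4) in WT and 195.8 CPM (175.7 to 217.6) in KO. The intervals of WT and KO did not overlap in any of these 3 clusters. The log2 ratio was 0.29 (0.15 to 0.43), 0.44 (0.27 to 0.61) and 0.51 (0.24 to 0.78) in turn.

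These late Ropn1l values lay below those of Sg, which were 515.2 CPM in WT and 477.1 CPM in KO. With each cell thinned to 3000 UMIs, which left out 0 cells, 28.8% of Sd10 cells in WT (22.4 to 35.9) and 38.1% in KO (32.4 to 44.1) had a Ropn1l UMI, against 39.3% and 40.1% of Sg cells. Without thinning the shares were 41.3% and 57.2% in Sd10, at medians of 5271 and 5287 UMIs per cell, and 56.6% and 59.9% in Sg, at 6133 and 5859. In Sd8 the thinned shares were 35.1% in WT and 42.9% in KO (39.4 to 46.4), and in Sd9 33% and 46.7% (41.9 to 51.5). The unthinned ones were 53.2% and 60.7% in Sd8, and 53.2% and 64.4% in Sd9. The late shares were thus below those of Sg in WT, and in KO below it in Sd10 and above it in Sd8 and Sd9, with intervals that overlapped that of Sg (33.3 to 47.2) after thinning. The Sg level was uneven between cells, with a median of 137.7 CPM per cell in WT and a 90th percentile of 1625 CPM. Without the 5% of cells with most Ropn1l UMIs in each library, the log2 ratio was 0.33, 0.46 and 0.50 in Sd8, Sd9 and Sd10. This alternative was chosen after the values were seen, and over all cells the ratio was 0.29, 0.44 and 0.51.

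Fsip2 encodes a very large protein of the fibrous sheath. It was at 862.4 CPM in WT and 1035 CPM in KO in Sd2, peaked in Sd3 at 1125 CPM (1096 to 1155) and 1281 CPM (1256 to 1306), and stood at 795.8 and 872.7 CPM in Sd4. The next cluster, Sd5, had 26.65 CPM in WT and 43.72 CPM in KO. The Fsip2 level thus fell within 1 step of the cluster order from about 70% of its highest level to a few percent of it in both libraries. In all 5 clusters from Sc2 to Sd4, in which it stood above its level in Sg, it was higher in KO, by 0.13 to 0.26 on the log2 scale, and the interval lay above 0 in each. From Sd5 on the counts were small, and the ratio was 0.47 to 0.75 in Sd5 to Sd8 and in Sd10 but 0.12 in Sd9. In Sd8, 102 UMIs in WT and 201 in KO gave 26.61 CPM (21.69 to 32.3) and 41.94 CPM (36.34 to 48.16). The Sd9 levels of 46.94 and 50.94 CPM had overlapping intervals. In Sd10, 42 UMIs in WT and 93 in KO gave 33.53 CPM (24.16 to 45.32) and 52.78 CPM (42.6 to 64.65), a log2 ratio of 0.65 (0.11 to 1.22). This was the largest of the 10 genes, but Ropn1l was above it with the mean of single-cell CPM (0.55 against 0.53) and with cells thinned to 3000 UMIs (0.52 against 0.40).

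The late Fsip2 levels were again below those of Sg (76.73 CPM in WT, 93.91 CPM in KO). After thinning, 9.24% of Sd10 cells in WT and 14% in KO had an Fsip2 UMI, and so had 12.3% and 12.4% of Sg cells. In Sd8 of KO, 1 cell held 40 of the 201 UMIs, where no WT cell of Sd8 held more than 9. Without the 5% of cells richest in Fsip2, chosen after the values were seen, the log2 ratio was 0.43 (-0.08 to 0.96) in Sd8 and 1.13 (0.36 to 2.01) in Sd10. The Sd8 interval then included 0, while the Sd10 ratio was larger than over all cells.

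The make-up of the libraries also differed. Cells of Sc2 to Sd4, in which Ropn1l and Fsip2 were high, were 42.65% of WT cells and 52.02% of KO cells, and gave 53.62% and 65.32% of the UMIs. Over the whole library, Ropn1l was at 2058 CPM in WT and 2429 CPM in KO, and Fsip2 at 411.9 and 552.1 CPM, a log2 ratio of 0.24 and 0.42. All other members were lower in KO over the whole library, from -0.42 (Gsg1) and -0.40 (Odf1) to -0.05 (Akap4). The share of all features lower in KO over the whole library was not computed. The 4 markers of round spermatids, none at 0, summed to 58.17 CPM in WT and 71.15 CPM in KO in Sd8. Their sums were 61.06 CPM (51.97 to 71.29) and 66.62 CPM (56.98 to 77.42) in Sd9, and 50.29 CPM (38.65 to 64.35) and 61.85 CPM (50.79 to 74.62) in Sd10. The 6 spermatocyte markers, none at 0, summed to 84.51 and 80.33 CPM in Sd8, to 147.7 CPM (133.3 to 163.2) and 188.5 CPM (172 to 206.1) in Sd9, and to 118.9 and 112.4 CPM in Sd10. The part of RNA from other cells in the late Ropn1l and Fsip2 values was not tested.

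**Figure D2:**
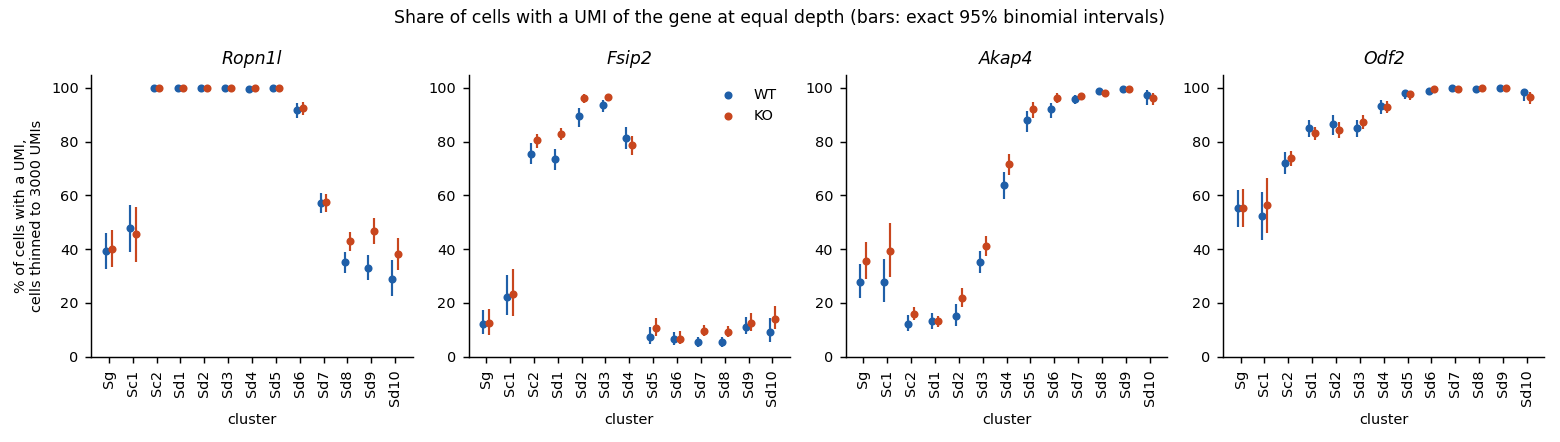
Share of cells with at least 1 UMI of Ropn1l, Fsip2, Akap4 and Odf2 (y axis, percent) in the 13 clusters (x axis), with each cell thinned to 3000 UMIs, for WT (blue) and KO (red), with exact 95% binomial intervals as bars. In Sd10, 28.8% of WT and 38.1% of KO cells had a Ropn1l UMI, no more than in Sg, while Akap4 was found in 97.3% and 96.4% of the same cells.

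Of the 3 genes of the middle course, Cabyr encodes a calcium-binding protein of the fibrous sheath that is phosphorylated during capacitation. It peaked in Sd4 at 739.1 CPM (713.9 to 765.1) in WT and 699.7 CPM (678.7 to 721.3) in KO. It was at 190.5 and 179.6 CPM in Sd6 and at 421.5 CPM (386.3 to 459) and 379.1 CPM (350.9 to 408.9) in Sd10. Cabyr thus had a second maximum at the end of the series, in both libraries. Its log2 ratio was between -0.15 and -0.02 in the 9 clusters from Sd2 to Sd10, with an interval below 0 in Sd3 and Sd4 and including 0 in the other 7.

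Akap3 encodes an A-kinase anchoring protein of the fibrous sheath that is laid down before AKAP4. It peaked in Sd5 at 890.2 CPM (855.3 to 926.3) in WT and 923.1 CPM (890.4 to 956.8) in KO. By Sd8 it was at 86.6 and 96.61 CPM, and in Sd10 52 UMIs in WT and 63 in KO gave 41.51 and 35.75 CPM. In the 6 clusters above the Sg level, Sd2 to Sd7, the log2 ratio lay between -0.12 and 0.11, with an interval above 0 in Sd4. The Akap3 mRNA was thus down to a few percent of its highest level where Akap4 was highest, in both libraries.

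Ropn1 encodes ropporin, which binds the same anchoring proteins as its relative Ropn1l. Its level hardly differed between Sd4 (2986 CPM in WT, 3006 CPM in KO) and Sd5 (3062 and 3027 CPM), and their intervals overlapped in each library. It was 1434 CPM (1397 to 1473) in WT and 1278 CPM (1246 to 1310) in KO in Sd8, with a log2 ratio of -0.17 (-0.22 to -0.11). In Sd10 it was 223.5 and 231 CPM, below the level in Sg. Ropn1l was thus high before Ropn1, but both genes were high in Sd4 and Sd5. There Ropn1l stood at 83.8% and 84.5% of its own highest level in WT, and Ropn1 at 97.5% and 100%. In Sd7 of WT, Ropn1l was at 313.3 CPM and Ropn1 at 2279 CPM, which were 8.67% and 74.4% of their highest levels.

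Odf1 encodes a major cysteine-rich protein of the outer dense fibres. It was at 213 CPM in WT and 201.3 CPM in KO in Sd4, at 437.7 CPM (417 to 459.1) and 386 CPM (368.6 to 404) in Sd8, and at 1553 CPM (1485 to 1624) and 1465 CPM (1409 to 1522) in Sd10. The KO value was the lower one in all 13 clusters. In the 7 clusters in which it stood above Sg, Sd4 to Sd10, the log2 ratio lay between -0.23 and -0.08, with an interval below 0 in 4 of them.

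Odf2 encodes an outer dense fibre protein that is also found at centrioles, and it had the smallest range of the 10 genes. Its highest level was 8.68 times its lowest in WT and 7.49 times in KO, and the lowest, in Sc1, was 510.3 and 523.4 CPM. It was 2750 CPM (2698 to 2803) in WT and 2857 CPM (2809 to 2905) in KO in Sd8, and 3972 CPM (3896 to 4049) and 3922 CPM (3845 to 3999) in Sd9. In Sd10 it was 4428 CPM (4312 to 4546) in WT but 3921 CPM (3829 to 4014) in KO, a log2 ratio of -0.18 (-0.23 to -0.12). From Sd4 to Sd8 the ratio had been 0.06 to 0.09, with intervals above 0. The step from Sd9 to Sd10 that was seen in WT was thus not seen in KO, and the sign of the difference turned with it. Odf2 levels of single cells were wide in Sd10, with a 10th percentile of 1308 CPM and a 90th of 6841 CPM in WT, and of 1000 and 6311 CPM in KO, while the medians were 4127 and 3504 CPM.

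Akap4 encodes the most abundant protein of the fibrous sheath. It was 356.3 CPM (338.9 to 374.5) in WT and 468.5 CPM (451.3 to 486.2) in KO in Sd4, 1494 CPM (1455 to 1533) and 1814 CPM (1776 to 1852) in Sd8, and 2419 CPM (2333 to 2506) and 2728 CPM (2651 to 2806) in Sd10. It was higher in KO in all 13 clusters, with an interval above 0 in 12, Sd1 being the exception. In the 7 clusters above the Sg level the log2 ratio was largest in Sd4, at 0.39 (0.30 to 0.49), and was 0.15 (0.10 to 0.21) in Sd9 and 0.17 (0.11 to 0.24) in Sd10. Over the whole libraries the Akap4 level was 628.8 CPM in WT and 608.1 CPM in KO. The part of RNA from other cells in the Akap4 values was not tested. Median cells showed the same order, with 1385 CPM in WT and 1782 CPM in KO in Sd8. Akap4 was also higher in KO in Sg, at 199.7 and 278.3 CPM, and in Sc1, at 210.6 and 320.4 CPM, where it is not known to be transcribed.

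**Figure D3:**
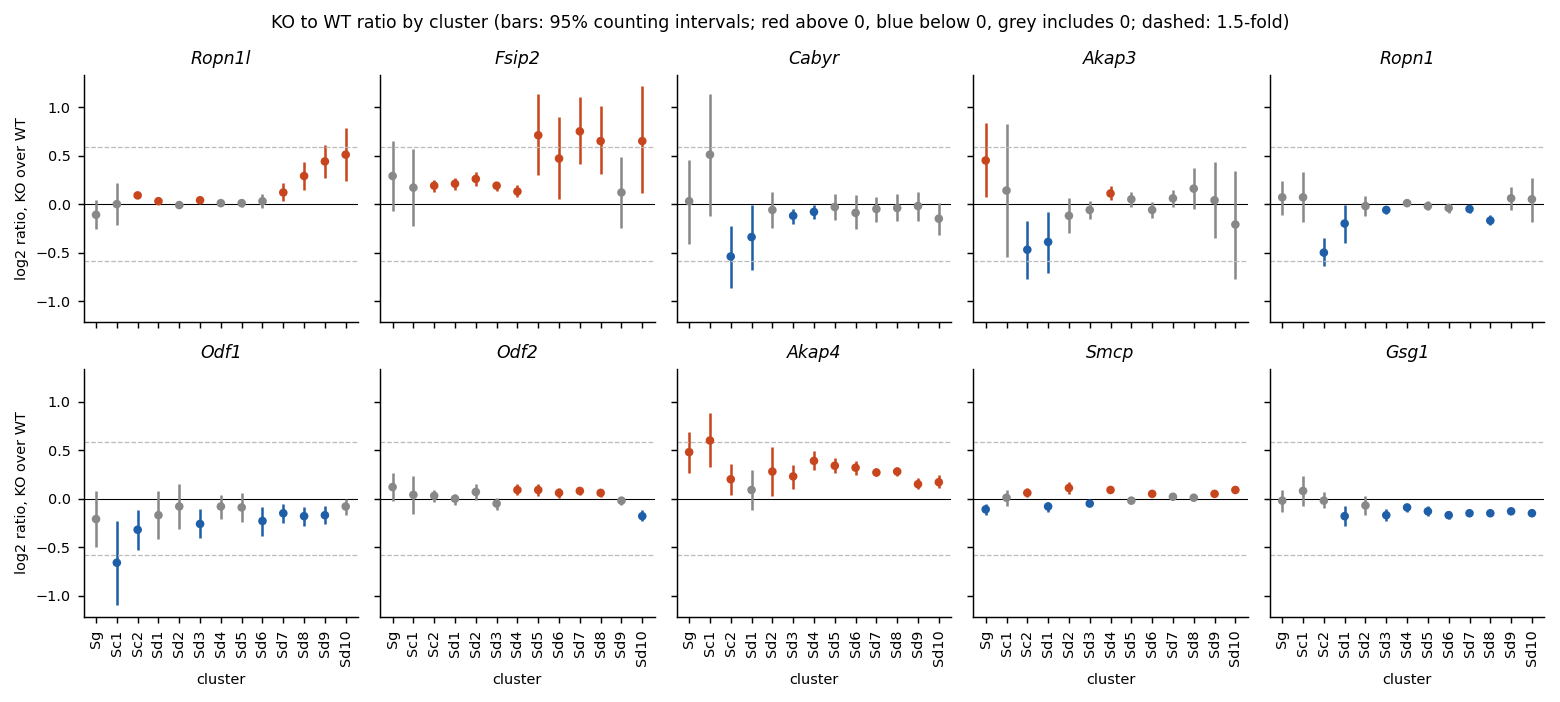
Log2 ratio of KO to WT (y axis) of each of the 10 genes in the 13 clusters (x axis), with exact 95% counting intervals as bars, drawn in red above 0, in blue below 0 and in grey where they include 0. Dashed lines mark 1.5-fold. Akap4 and Fsip2 were above 0 in 13 of 13 clusters and Odf1 below 0 in 13 of 13, and from Sd4 to Sd10 all Gsg1 values lay between -0.17 and -0.09.

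Smcp had the most UMIs of the 10 genes. It was 15075 CPM (14952 to 15198) in WT and 15219 CPM (15109 to 15330) in KO in Sd8, 21942 and 22751 CPM in Sd9, and 40140 CPM (39790 to 40492) and 42835 CPM (42530 to 43142) in Sd10. From Sd4 to Sd10 the log2 ratio lay between -0.02 and 0.09. Because of the many UMIs the intervals were narrow, and the ratio of 0.09 in Sd10 had an interval of 0.08 to 0.11.

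Gsg1 was 4902 CPM (4832 to 4973) in WT and 4410 CPM (4350 to 4469) in KO in Sd8, 7201 and 6577 CPM in Sd9, and 12353 CPM (12159 to 12549) and 11171 CPM (11016 to 11328) in Sd10. It was lower in KO in each of the 7 clusters from Sd4 to Sd10, by a log2 ratio of -0.17 to -0.09, and every interval lay below 0. Papolb, the poly(A) polymerase of germ cells, was named after its values were seen. Among the last 3 clusters it had enough UMIs to be read in Sd8 only. There it was at 133 CPM in WT and 104.3 CPM in KO (log2 ratio -0.35, -0.53 to -0.17). From fewer UMIs, the Papolb ratio was 0.10 (-0.51 to 0.72) in Sd9 and 0.04 (-0.88 to 0.99) in Sd10. Its highest level was 292.2 CPM in WT, in Sd1, and 312.9 CPM in KO, in Sd2. Whether Papolb and Gsg1 levels change together was not tested.

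The study followed the transcriptome through the late steps of spermatids. The step from Sd8 to Sd10 compares levels within each library. In WT, 6 genes were higher in Sd10 than in Sd8 with an interval above 0, namely Odf1, Odf2, Akap4, Cabyr, Smcp and Gsg1, and Akap3, Ropn1 and Ropn1l were lower. The shares of all features that were higher or lower in this way were not computed. The median change over the 10 genes was 0.69 on the log2 scale in WT and 0.52 in KO, over genes that went both ways. Odf1 changed most upwards, by 1.83 (1.73 to 1.92) in WT and 1.92 (1.84 to 2.01) in KO. Ropn1 changed most downwards, by -2.68 (-2.86 to -2.51) in WT and -2.47 (-2.62 to -2.32) in KO.

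The change in KO minus that in WT had an interval without 0 for 3 genes. For Odf2 it was -0.23 (-0.29 to -0.17), with a change of 0.69 in WT and 0.46 in KO. For Akap4 it was -0.11 (-0.19 to -0.03), and for Smcp 0.08 (0.06 to 0.10). The share of all features with such an interval was not computed, and the many UMIs of Smcp make its interval narrow. The 3 genes whose level was lower in Sd10 in WT gave differences of -0.37 (-0.94 to 0.19) for Akap3, 0.21 (-0.01 to 0.44) for Ropn1 and 0.22 (-0.08 to 0.52) for Ropn1l. All 3 intervals include 0. Ropn1l was below its Sg level in both clusters, and Akap3 and Ropn1 were below it in Sd10, so that these changes are given as values and not read as loss of mRNA. Per cell, Ropn1 went from 8.9 to 1.52 UMIs in WT and from 7.81 to 1.46 UMIs in KO.

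**Figure D4:**
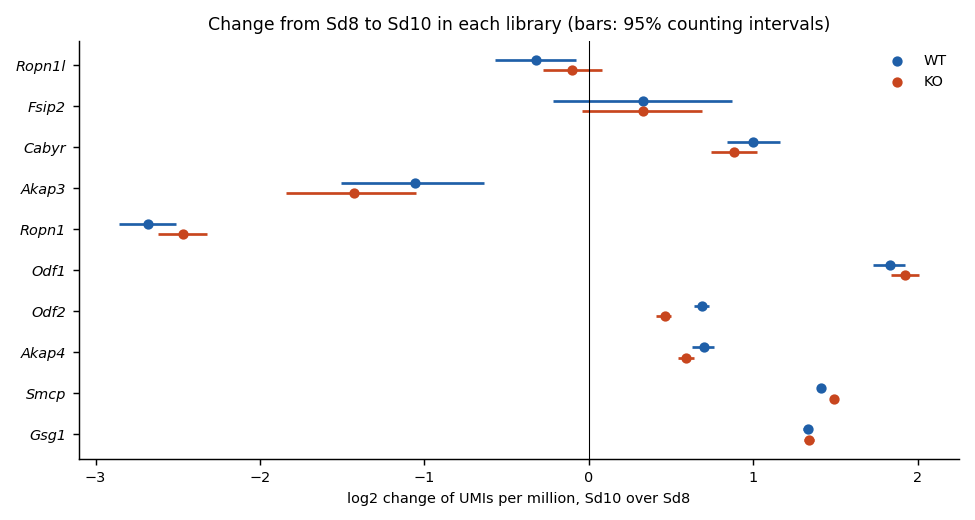
Log2 change of CPM from Sd8 to Sd10 (x axis) for each of the 10 genes (y axis), in WT (blue) and KO (red), with exact 95% counting intervals as bars. The intervals of WT and KO are apart for Odf2 (0.69 and 0.46) and Smcp (1.41 and 1.49), while Akap3, Ropn1 and Ropn1l have overlapping intervals.

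Set among all features, the 10 genes did not stand to one side. In Sd10 their median log2 ratio was -0.02, from -0.21 (Akap3) to 0.65 (Fsip2), against 0.01 over the 1797 features with at least 100 UMIs in both libraries together. In Sd9 the median was 0.05 against 0.03 over 2800 features, and in Sd8 0.03 against 0.03 over 3734. Only 1 member, Fsip2, was at least 1.5-fold higher in KO in Sd10, where 7.18% of all features were. It was also the only one in Sd8, where 2.49% were, and 0 were in Sd9, where 5.50% were. At least 1.5-fold lower in KO were 0 of 10 members in Sd8, Sd9 and Sd10, where the share of all features was 0.616%, 1.29% and 2.67%. With 10 genes, 1 or 0 past this fold is near the background. Features whose WT level was highest in Sc2 to Sd4, as those of Ropn1l, Fsip2 and Cabyr were, had a median of 0.12 in Sd10 (598 features, 12.4% at least 1.5-fold higher). Those highest in Sd5 to Sd8, as Akap3 and Ropn1 were, had -0.11 (315 features, 6.03%), and those highest in Sd9 or Sd10 had -0.01 (676 features, 2.96%). At least 1.5-fold lower were 1.34%, 5.71% and 1.63% in turn. These groups were set by the WT level, which also enters the ratio and the minimum of UMIs, so they are given as a description only.

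**Figure D5:**
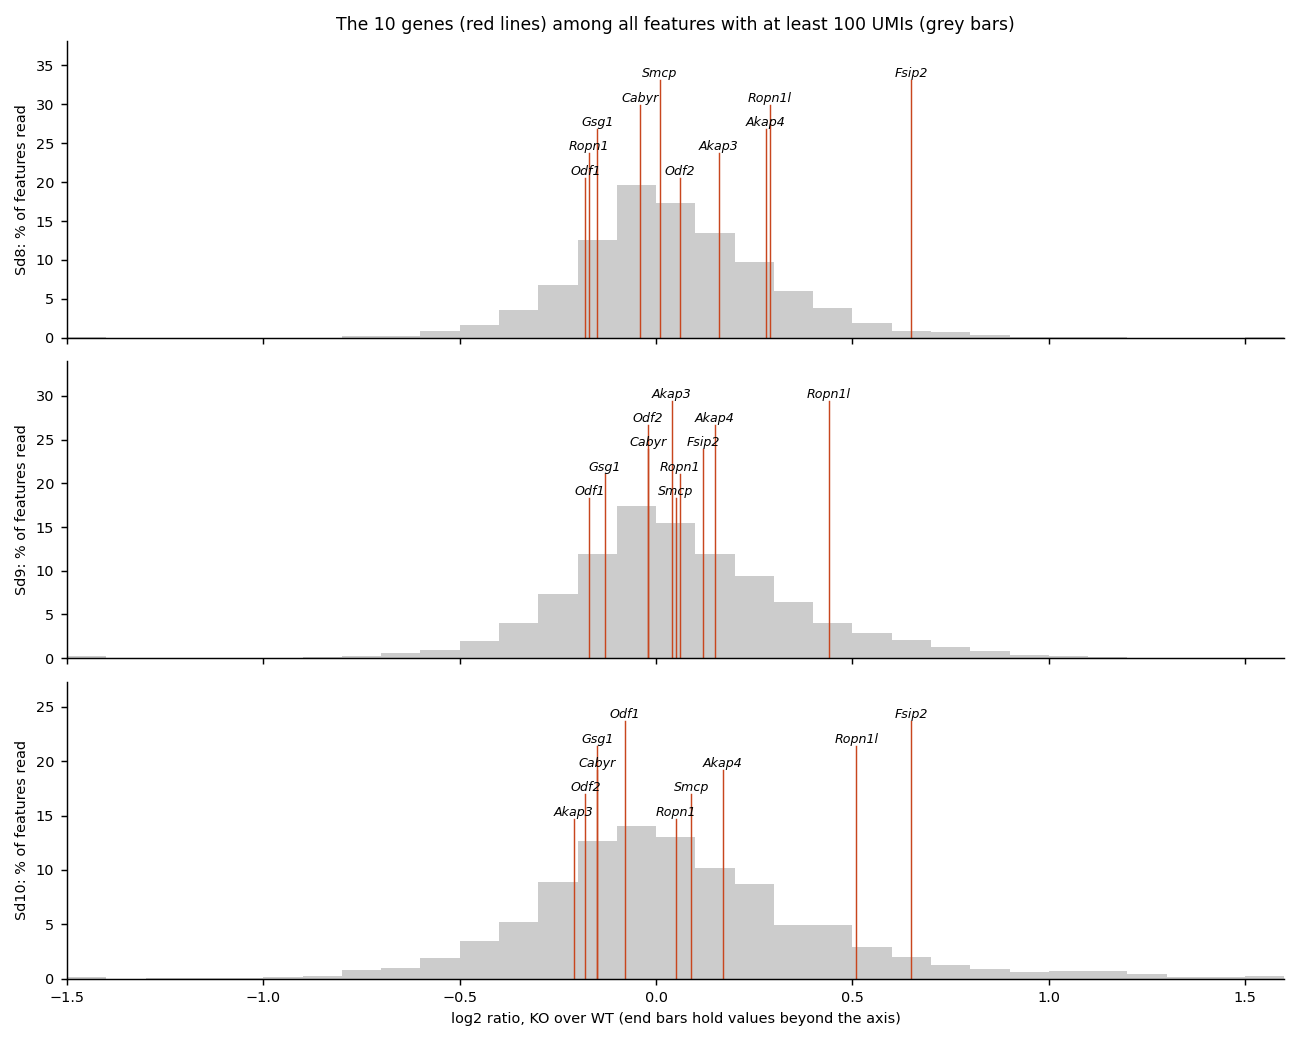
Distribution of the log2 ratio of KO to WT (x axis) over all features with at least 100 UMIs in Sd8, Sd9 and Sd10 (grey bars, percent of features per 0.1 on the y axis), with the 10 genes as red lines whose height only separates the names. Fsip2 in Sd8 and Sd10 and Ropn1l in Sd9 and Sd10 lie to the right of the bulk, and the other members lie between -0.21 and 0.29.

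Other genes of the same structures were read from lists made with earlier results of these data known. Of 13 fibrous sheath associated genes, 9 had 1 possible row and 7 had enough UMIs in Sd10, with a median log2 ratio of 0.03 and 0 past 1.5-fold in either direction. Prkar2a, the regulatory subunit of protein kinase A, was at 859 CPM in WT and 985.7 CPM in KO (0.20), and Ldhc, the lactate dehydrogenase of germ cells, at 711.3 and 620.2 CPM (-0.20). Spa17, which has a domain like that of the same subunit, had a ratio of 0.06, and Tcp11 one of -0.16. Of the outer dense fibre associated genes only Odf4 was read in Sd10, at 256.2 and 271.3 CPM. Of the channels of the principal piece 2 were read. Catsperz, a subunit of the CatSper calcium channel, was at 30.33 CPM in WT and 50.51 CPM in KO (0.73, 0.17 to 1.32), small values beside its peak of 1553 and 1479 CPM in Sd1. Atp1a4, a sodium pump subunit, was at 245.1 and 250.8 CPM (0.03, -0.18 to 0.25), so that 1 of 2 was at least 1.5-fold higher, where 7.18% of all features were.

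The genes of the mitochondrial sheath and annulus, neighbours of the outer dense fibres in the midpiece, had a lower median than the 10 members in Sd10, at -0.39 over 7 genes, although 0 were past 1.5-fold and 4 had an interval below 0. The share of all features with an interval below 0 was not computed. Gpx4, a selenoprotein of the mitochondrial capsule as SMCP is a protein of it, was at 1636 CPM in WT and 1117 CPM in KO (-0.55, -0.64 to -0.46), and at 1806 and 1334 CPM in Sd9. Gykl1, a glycerol kinase-like gene, had a log2 ratio of -0.43 (-0.86 to -0.00), from 92 UMIs in WT and 96 in KO. Sept12, of the annulus, was the highest of the 7 at 0.16 (-0.01 to 0.33), and Spata18 was next at -0.04. In Sd9 the median of the list was 0.06 over 11 genes and in Sd8 -0.01.

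For each member the genes with the most similar course over the 13 WT clusters were sought among 4803 genes by the Pearson r of log2 levels, given as a description because the clusters share 1 library. Gapdhs, the sperm form of glyceraldehyde 3-phosphate dehydrogenase and itself bound to the fibrous sheath, was among the 2 most similar genes of both Smcp (0.998) and Gsg1 (0.999). The other gene of the pair was St6galnac2 for Smcp (0.999) and Spz1 for Gsg1 (0.997). Akap4 was most like Vasp (0.998) and Gm11780 (0.996), Odf1 most like Clpb (0.984) and Lpin1 (0.982), and Odf2 most like Isca1 (0.988) and Nrd1 (0.985). Of the earlier genes, Ropn1l was most like Lypd4 (0.991) and Dkkl1 (0.989), and Fsip2 most like Lrrc6 (0.992) and Ccdc173 (0.989). Cabyr was most like Llcfc1 (0.983) and 4931431B13Rik (0.975), Akap3 most like Cypt2 (0.988) and Erich3 (0.984), and Ropn1 most like Tbata and Chd5 (0.992 for both). In the KO library the r of these same pairs was between 0.970 and 0.999. Between members, r was 0.99 for Akap4 with Smcp and with Gsg1, 0.92 for Akap3 with Ropn1 and 0.73 for Ropn1l with Fsip2, and 0.03 between the 2 ropporin genes in WT.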

How the data were processed

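Per the methods and labels, the authors made the libraries with a microwell bead kit, mapped the reads to mm10 (Ensembl 92) and deposited UMI counts per feature and cell, with a cell table of clusters and the percent of mitochondrial UMIs. Their processing notes name fastp 1, FastQC 0.11.7, STAR 2.5.3a, featureCounts 1.6.2 and Seurat 3.2.3. The deposited cells were used as they are. Doublet removal is not given in the sources used here, and no doublet caller was run.

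The list of symbols was aligned to the matrix rows by 30 mitochondrial symbols, whose UMIs add up to the authors' percent in 12408 of 12408 cells, and only rows seen in under 5 cells were allowed to lack a symbol. Of the 10 genes, 4 have 1 possible row without that limit as well. UMIs were summed per library and cluster. A log2 ratio had a prior of 1 UMI over both libraries. A feature was read with at least 100 UMIs. Intervals are exact Poisson or binomial, or a normal approximation for the KO change minus the WT change (scipy 1.17.1, Python 3.11.15, numpy 2.4.6, pandas 2.3.3). The computation was tested on simulated data.

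By rule, the named genes are the 10 members, the 2 genes most like each, up to 2 highest and 2 lowest of each list in Sd10 with at least 100 UMIs, and markers of other cells. Papolb was named outside this rule, after its values were seen. Members and lists were chosen with earlier results of these data known. Overlapping genes in the annotation were not separated.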

Additional observations from a re-analysis of the deposited data

Results flagged for a closer look

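The KO to WT ratio of Odf2 had opposite signs in 2 of the spermatid clusters from Sd5 to Sd10. It was 0.09 on the log2 scale in Sd5 (0.03 to 0.15) and -0.18 in Sd10 (-0.23 to -0.12), with both intervals for counting error only. The difference between the clusters was not tested, since there was 1 library per genotype. None of the other 9 genes had an interval above 0 in 1 of these clusters and below 0 in another. The share of all features with such intervals was not computed. Odf2 levels were 1563 CPM in WT and 1661 CPM in KO in Sd5.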

How the results depend on the processing

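No paired analysis was possible because each genotype had 1 sample. Under the alternatives tried, the median log2 ratio of the 10 genes stayed within their counting error, at -0.03 to 0.08 in Sd10 and 0.01 to 0.06 in Sd9. The count of genes at least 1.5-fold apart in Sd10, 1, was 0 with the mean of single-cell CPM, with cells thinned to 3000 UMIs and with a minimum of 1000 UMIs, because Fsip2 no longer passed. In Sd9 the count of 0 was 1 with thinned cells, by Ropn1l (0.61). The median change from Sd8 to Sd10 in WT, 0.69, was 0.85 with thinned cells, 0.83 as UMIs per cell and 0.84 over the 4 genes with 1 possible row without the limit on cells. Over the same 4 genes it was 0.67 in KO, against 0.52. The shared peak cluster was found for 8 or 9 of 10 genes. Of 120 values of single genes in Sd9 and Sd10, 115 kept their sign, and no value whose interval excluded 0 changed sign. No scaling moved the median of all features by over 0.02. Depth limits the genes with few UMIs in Sd10, such as Fsip2 with 42 in WT and 93 in KO and Akap3 with 52 and 63.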
